A study of Bos taurus with 21 samples.

Results

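The genes described are 8 cathepsins, CTSB, CTSD, CTSS, CTSZ, CTSH, CTSK, CTSC and CTSA, as their mRNA was counted in milk somatic cells of 21 Holstein cows. They were chosen by gene symbol and on their read counts, because CTSB had the highest count of all genes in some cows. Earlier results of these data were known when the members and the gene lists were chosen. All 8 symbols were present among 13570 gene rows, of which 12333 had a count in at least 1 cow. Each of the 8 had at least 10 counts in every cow, the lowest single value being 647 counts (CTSA in HY cow 3280), and so none was lost to a filter on low values. The ranks and levels given first are the values that chose the genes, and they are described without a test.

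The cows were lactating Holsteins of unstated kinship, assigned by the submitters to a high (HY, n = 9) or a low (LY, n = 12) milk-yielding group. Each cow contributed 1 library of total RNA from the cells shed into milk, so the cows are the replicates. Lactation period spanned 41 to 268 days among HY cows and 52 to 270 days among LY cows, and parity from 2 to 4 in both groups. The labels also gave milk yield, milk fat, milk protein and milk solid for each cow without units. Several of these values were below 0, and the study describes its milk yield as a normalized breeding value from a production index, so yield is not an amount of milk measured at sampling. Udder health, cell counts and cell composition of the samples were not given in the sources used here.

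Cathepsins are proteases that work mainly in the acidic lumen of the lysosome. Most are cysteine proteases, whereas cathepsin D is an aspartic and cathepsin A a serine protease. They are made as inactive precursors, are carried to the lysosome largely by mannose 6-phosphate receptors, and are held in check outside it by cystatins. Macrophages, which take up and digest cell debris and fat in milk, are rich in them, while the milk-secreting epithelial cells make the caseins, which are the main milk proteins.

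Between 7878557 and 28541904 counts fell on genes in each library. The 4 casein genes took between 0.0876% (HY cow 3235) and 44.2% (HY cow 3262) of a library's counts, a range that both groups spanned to a large extent, since LY cows lay between 0.164% and 26.8%. SPP1 was the most counted gene in 8 cows, CSN2 in 6, CSN1S1 in 3, CTSB in 2 and IL1RN and PAEP in 1 each. Markers of macrophages, neutrophils, lymphocytes and mammary epithelium were all detected, so every library was a mixture of cell types. A change in the number of cells of a type and a change in RNA per cell cannot be told apart in such bulk samples.

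CTSB, a lysosomal endopeptidase that can also act as a carboxypeptidase, held the first rank by count in HY cows 2814 and 3235 and ranked no lower than 18 in any cow, with a median rank of 6. It was among the 10 most counted genes in 17 of 21 cows, 7 of them HY and 10 LY. Its share of the counts ran from 0.289% to 3.27%, and the 8 cathepsins together took from 0.514% (HY cow 3280) to 4.86% (HY cow 2814). The other 7 members never reached the 10 highest ranks. CTSD and CTSS came nearest, with best ranks of 11 and 12, and CTSA was the member with the lowest ranks, between 90 and 1159. Levels are given below in CPM, counts relative to a library size scaled by the trimmed mean of M-values (TMM). They were not divided by transcript length, so they are compared between cows and not between genes.

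Among the cysteine endopeptidases, CTSB was measured at 5808 CPM in the lowest, 10893 in the median and 27411 in the highest HY cow. In LY it ran from 4200 through a median of 8680 to 23227 CPM, so only the highest HY cow, 2814, lay outside the LY range. Cathepsin S, which trims the invariant chain of class II molecules in antigen-presenting cells, had CTSS values of 908, 2204 and 2924 CPM (lowest, median, highest) in HY and of 920, 1926 and 3750 CPM in LY. Cathepsin K is the collagen-degrading protease best known from osteoclasts, and CTSK was at 503, 1047 and 1695 CPM in HY against 483, 1164 and 2118 CPM in LY. The CTSS and CTSK ranges of the groups overlapped almost completely. How many of all genes overlap between the groups is not given here, so overlap is not read as a trait of the cathepsins.

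The cathepsins that trim protein ends also overlapped between the groups. Cathepsin H is an aminopeptidase, and CTSH was measured at 436, 713 and 1984 CPM in HY and at 355, 650 and 1512 CPM in LY. Cathepsin C removes dipeptides and activates the serine proteases of granules, and CTSC lay at 591, 776 and 1675 CPM in HY and at 574, 780 and 1366 CPM in LY. HY cows 3235 and 2814 were above every LY cow for CTSC, with 1675 and 1572 CPM. Cathepsin Z, also called cathepsin X, is a carboxypeptidase, and CTSZ was at 524, 998 and 1904 CPM in HY and at 443, 963 and 2234 CPM in LY.

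The 2 members outside the cysteine protease family varied most. Cathepsin D is an abundant aspartic protease that also processes prosaposin, and CTSD was measured at 542, 1736 and 5252 CPM in HY and at 863, 1595 and 6731 CPM in LY. Its highest value, in LY cow 7643, was 12.4 times its lowest, in HY cow 3075. Cathepsin A protects lysosomal galactosidase and neuraminidase and has carboxypeptidase activity, and CTSA was at 127, 339 and 1223 CPM in HY and at 177, 344 and 931 CPM in LY, a 9.62-fold range. The narrowest range was that of CTSC, at 2.92-fold. On the log2 scale the SD over all 21 cows was 0.90 for CTSD, 0.78 for CTSA and 0.49 for CTSC, beside a median SD of 0.61 over the 7146 genes counted at least 10 times in each cow. The spread of CTSD exceeded that of 84.0% of those genes, and that of CTSC exceeded 26.6%.

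**Figure D1:**
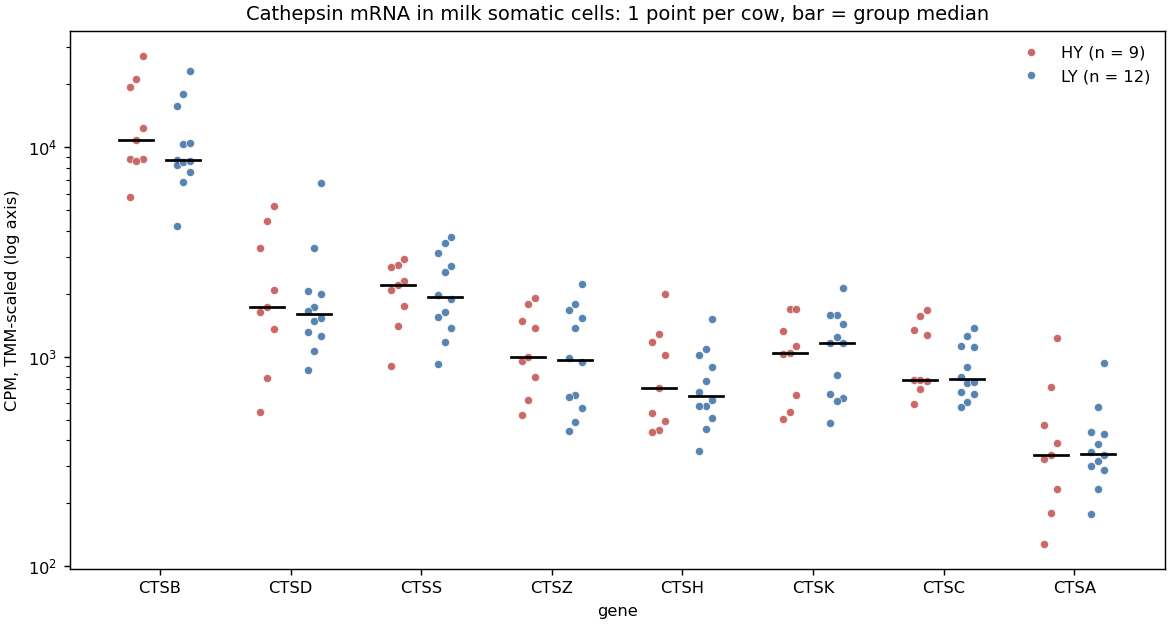
Each point is 1 cow, placed by its CPM (TMM-scaled, log axis) for the cathepsin named on the horizontal axis, with HY cows (n = 9) in red and LY cows (n = 12) in blue and black bars at the group medians. The groups overlap for every gene shown, which was not set against the share of all genes that overlap, and CTSB spans 4200 to 27411 CPM.

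The comparison of HY with LY asked whether cathepsin mRNA differed with the milk-yielding group. No member passed the test. In edgeR's quasi-likelihood test 0 of 8 members had p under 0.05, where 4.70% of the 12333 genes did (580 genes). DESeq2 also called 0 of 8 at p under 0.05, where it called 367 of the 12333 genes. No gene passed an adjusted p of 0.05 with edgeR and 1 did with DESeq2. The log2 fold changes of HY over LY ran from -0.08 ± 0.29 (SE) for CTSK to 0.33 ± 0.37 for CTSB, and the unadjusted p of edgeR lay between 0.295 (CTSC) and 0.881 (CTSS), each with an adjusted p of 0.9986. The mean of CTSB was 13706 ± 7268 CPM over the HY cows (SD, n = 9) and 10892 ± 5407 CPM over the LY cows (SD, n = 12), with p = 0.327 in a two-sided exact permutation test of log2 values over all 293930 assignments. For CTSC, whose 2 highest cows were HY, the exact permutation p was 0.323, and for CTSD it was 0.849. The SEs leave room for differences of the size seen between single cows, so these p-values do not show that the groups were alike.

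The 4 milk traits gave no relation either. The regressions took each trait as the response and the log2(CPM + 0.25) of a gene as the predictor, over 21 cows. Pearson's r of the members with milk yield ran from -0.09 (CTSZ) to 0.19 (CTSB), with milk fat from -0.10 (CTSS) to 0.28 (CTSC), with milk protein from -0.09 (CTSS) to 0.15 (CTSD) and with milk solid from -0.23 (CTSZ) to 0.09 (CTSC). Spearman's rho over these 4 traits stayed between -0.29 and 0.27. In each of the 4 regressions 0 of 8 members had p under 0.05, where 2.49% of all genes did for yield, 2.30% for fat, 2.30% for protein and 1.65% for solid. edgeR's quasi-likelihood test with the trait as covariate also called 0 of 8 members for each. At p under 0.05 it called 456 of 12333 genes for yield, 354 for fat, 342 for protein and 386 for solid. A count of 0 among 8 genes lies near these shares. The lowest p of any member in the linear regressions was 0.216 (CTSC with milk fat), and the adjusted p over all genes was 0.9997. A total of 48 relations, of 8 members with 6 measures, were computed.

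**Figure D2:**
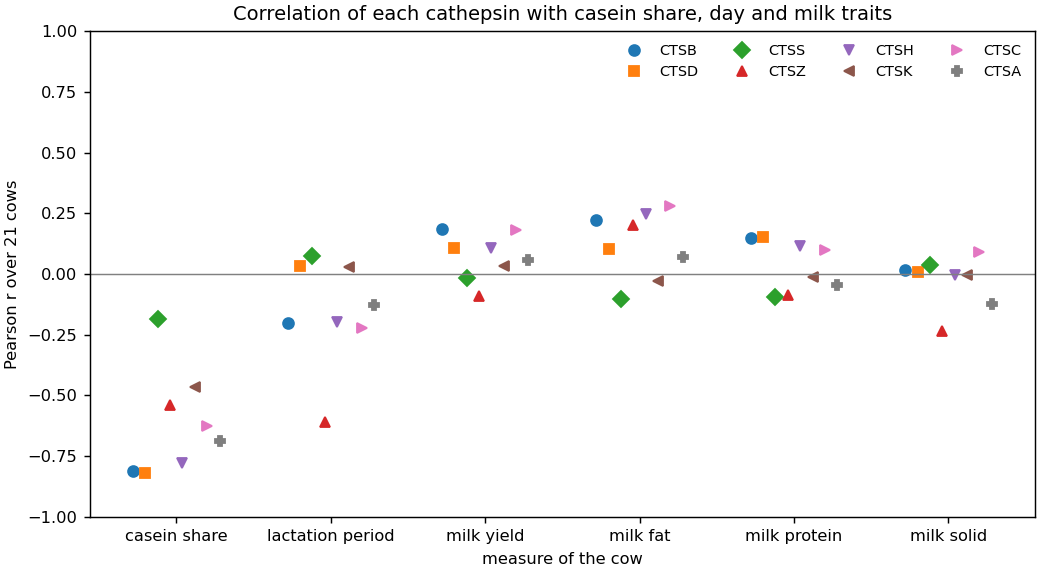
The vertical axis is Pearson's r over 21 cows between the log2 level of each cathepsin (symbol and colour) and the measure named on the horizontal axis. All 8 genes lie below 0 for casein share, CTSZ lies apart at -0.61 for lactation period, and all values for the 4 milk traits lie between -0.23 and 0.28.

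Cathepsin mRNA was lower in the cows whose libraries held more casein mRNA. The casein share is the percent of a cow's counts on CSN1S1, CSN1S2, CSN2 and CSN3, and it was used on the log2 scale. In HY cow 3235, with the lowest share, CTSB was at 21308 CPM, CTSD at 5252 CPM and CTSH at 1984 CPM. In HY cow 3280, with a share of 33.6%, the same genes were at 5808, 794 and 436 CPM. HY cow 3262 went against this order, with the highest share of all and 10893 CPM of CTSB, 2086 CPM of CTSD and 1014 CPM of CTSH.

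All 8 members had a negative r with casein share, and 7 had p under 0.05. Over all genes 30.5% had p under 0.05, and 17.2% with a negative slope. At an adjusted p under 0.05 over all genes, 5 of 8 members were called, all negative, against 18.1% of genes in either direction and 9.32% with a negative slope. The median r of the members was -0.66, and that of all genes was -0.06. CTSB was chosen for ranking first in the 2 cows with the least casein, so its relation is not independent of the choice. Its p-values are descriptive only, and the counts of 7 and 5 called members include it. Each r is also given without those cows, 2814 and 3235, which were likewise the 2 cows farthest from the median share. Leaving them out does not undo the choice of CTSB.

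For CTSB, r was -0.81 and rho was -0.71 (permutation p = 1e-05, the smallest that 100000 permutations can give, and 5.9e-04, n = 21), with an adjusted p over all genes of 3.6e-04. Its log2 level fell by 0.20 ± 0.03 (SE) per doubling of the share, and r was -0.72 without the 2 cows. CTSD gave r = -0.82 and rho = -0.69 (permutation p = 1e-05 and 6.8e-04; adjusted p = 2.8e-04), a fall of 0.26 ± 0.04 per doubling, and r = -0.78 without them. CTSH gave r = -0.78 and rho = -0.69 (permutation p = 5e-05 and 8.4e-04; adjusted p = 0.0010) and r = -0.66 without them. CTSA gave r = -0.69 and rho = -0.79 (permutation p = 4.9e-04 and 2e-05; adjusted p = 0.0077) and r = -0.68 without them. Without the 2 cows the permutation p lay between 1.5e-04 (CTSD) and 0.0017 (CTSH) for these 4 genes.

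The relation was weaker for the remaining 4 members. CTSC had r = -0.63 and rho = -0.58 (permutation p = 0.0027 and 0.0065; adjusted p = 0.021), but r was -0.40 without the 2 cows (permutation p = 0.083) and no longer passed. CTSC also lost its adjusted call when only cow 2814 (adjusted p = 0.069) or only cow 3235 (adjusted p = 0.075) was left out. CTSZ had r = -0.54 and rho = -0.47 (permutation p = 0.011 and 0.033; adjusted p = 0.059), and CTSK had r = -0.47 and rho = -0.53 (permutation p = 0.035 and 0.015; adjusted p = 0.12). Without the 2 cows these were -0.41 and -0.38 (permutation p = 0.084 and 0.11) and did not pass at 19 cows. CTSS gave r = -0.19 and rho = -0.38 (permutation p = 0.42 and 0.090; adjusted p = 0.64), and r = -0.092 without the 2 cows (permutation p = 0.71).

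LY cow 7643 stood apart in CTSS, CTSK and CTSC. It had a casein share of 0.164% and the highest CTSD value of all cows, 6731 CPM, while its CTSS was at 920, its CTSK at 613 and its CTSC at 678 CPM. Without this cow r was -0.44 for CTSS, -0.64 for CTSK and -0.78 for CTSC, and CTSK then had an adjusted p of 0.029. CTSZ passed an adjusted p of 0.05 when LY cow 2893, which had its highest level (2234 CPM), or HY cow 3262 was left out (adjusted p = 0.019 and 0.030).

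Within HY, r with casein share ran from -0.59 (CTSZ) to -0.91 (CTSC) over 9 cows. Within LY it was -0.70 for CTSB, -0.84 for CTSD, -0.76 for CTSH, -0.60 for CTSA, -0.53 for CTSZ, -0.17 for CTSC, -0.15 for CTSK and 0.25 for CTSS over 12 cows. HY held cows 2814 and 3235, those with the least casein, and LY held cow 7643, which stood apart as described above. The difference between the groups was not tested. The libraries fell into a set of 16 with a lower and a set of 5 with a higher read mapping rate, and the 5, of which 4 were LY, were too few for a value of their own. In the 16, r was -0.85 for CTSB, -0.81 for CTSD and CTSH, -0.87 for CTSC, -0.74 for CTSA, -0.64 for CTSK, -0.57 for CTSZ and -0.49 for CTSS. With the casein genes left out of the library totals and of the scaling, r of CTSS moved most, to -0.15. On the log2 scale, r was -0.02 between casein share and the counts per library. Between casein share and the TMM factor, which enters every CPM, r was -0.45 and rho -0.53.

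**Figure D3:**
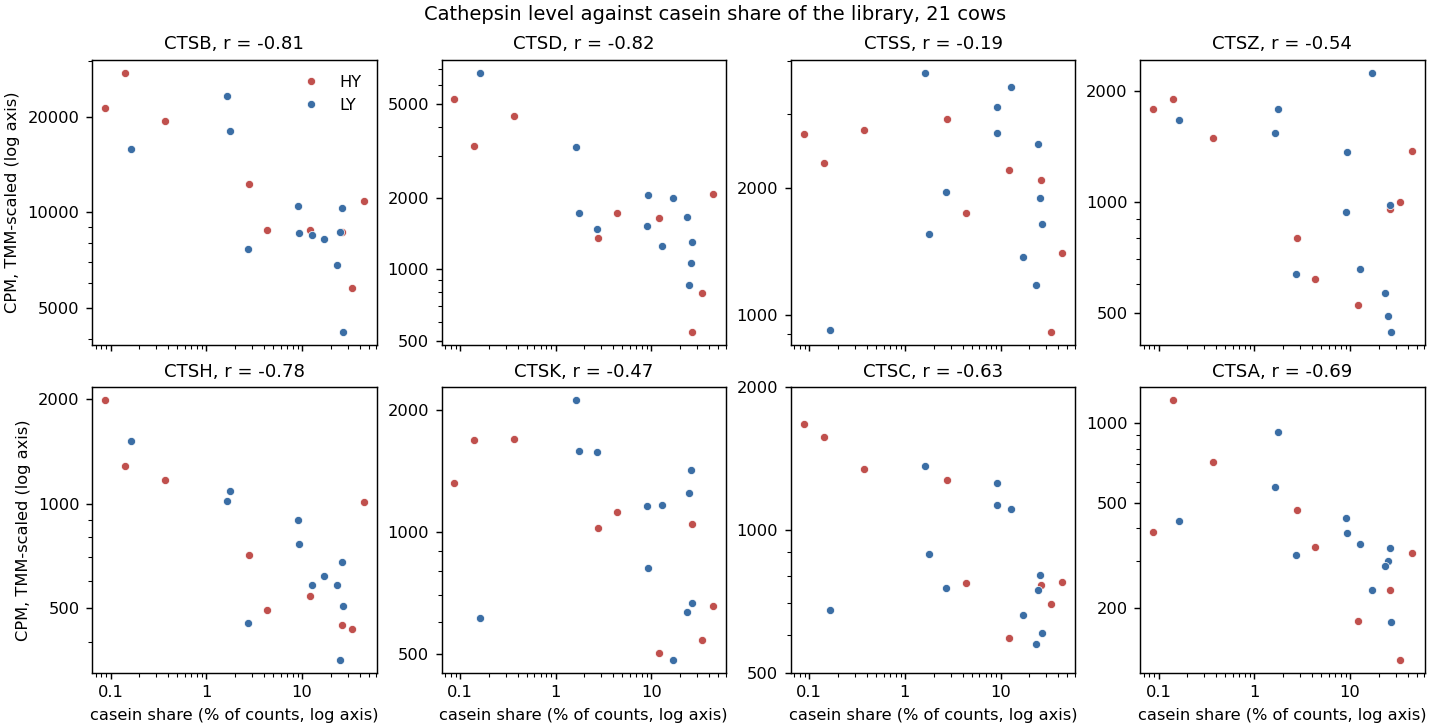
Each panel plots 1 cathepsin, with the casein share of the cow's counts in percent on the horizontal log axis and its level in CPM (TMM-scaled) on the vertical log axis. Each point is 1 cow, HY in red and LY in blue, and Pearson's r over 21 cows stands above each panel, from -0.82 for CTSD to -0.19 for CTSS.

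The casein share also moved with cell type markers, whose values stand here beside the cathepsins. The summed CPM of the 10 macrophage markers measured, of 13 listed, spanned 1543 to 6970 over HY cows and 1912 to 6171 over LY cows, and its r with log2 casein share was -0.79. Of these 10, CD14, CD68, CSF1R and C1QC were negatively related at an adjusted p under 0.05, and MSR1, AIF1 and FCGR1A did not reach p under 0.05. CD68 was the most abundant of the 10, with a median of 1568 CPM, and so led the sum. None of the 10 had a median count under 10. The 9 mammary epithelial markers, all measured, summed to 92.0 to 109082 CPM in HY and 282 to 42941 CPM in LY, and their r with casein share was 0.95. LALBA was the most abundant of the 9, with a median of 3054 and a highest value of 100373 CPM, and so led that sum. The 5 NK and cytotoxic markers gave -0.79, as low as the macrophage sum. The 7 neutrophil markers measured gave -0.29, the 9 T cell markers -0.15 and the 5 B cell markers -0.20. The summed neutrophil level spanned 1713 to 12061 CPM over HY cows and 3089 to 11568 CPM over LY cows.

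With the log2 sum of macrophage markers added to the regression, 2 members kept p under 0.05 with casein share, namely CTSD (partial r = -0.62, p = 0.0037 and adjusted p = 0.17 over all genes in the linear regression) and CTSH (partial r = -0.48, p = 0.031, adjusted p = 0.42). For CTSB the partial r was -0.35, for CTSZ -0.32 and for CTSC -0.21, and for CTSA, CTSK and CTSS it was 3.9e-04, 0.044 and 0.29. This covariate was chosen after the data had been seen, and 1230 genes in all then had p under 0.05. The sum was measured in the same libraries and is led by CD68, so it is not a count of macrophages. The part of cell composition in the relation of the cathepsins to casein share was not tested.

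The members tracked the macrophage markers to different degrees. Over the same 21 libraries, r with the summed markers was 0.92 for CTSB and 0.88 for CTSA, followed by CTSH (0.73), CTSD (0.69), CTSC (0.67), CTSK (0.62), CTSZ (0.46) and CTSS (0.44). In the 16 libraries of lower mapping rate the value was 0.65 for CTSS, 0.77 for CTSK and 0.78 for CTSC. The sum is weighted towards CD68, its most abundant gene. Over all 21 libraries the 10 markers taken singly had a median r of 0.68 with CTSA, 0.63 with CTSB and 0.55 with CTSK. The median was 0.51 with CTSD, 0.50 with CTSC, 0.47 with CTSH, 0.35 with CTSS and 0.25 with CTSZ. With the neutrophil sum, r lay between -0.15 (CTSK) and 0.42 (CTSH), and with the T cell sum between -0.36 (CTSZ) and 0.15 (CTSA). With the B cell sum r lay between 0.06 (CTSD) and 0.655 (CTSA, rho = 0.30). The small set of 5 NK and cytotoxic markers, led by NKG7, gave 0.82 for CTSA, 0.81 for CTSB, 0.78 for CTSH and 0.77 for CTSD. It gave 0.64 for CTSZ, 0.54 for CTSC, 0.48 for CTSK and 0.14 for CTSS. For CTSD, CTSH and CTSZ this was above the value with the macrophage sum. These are correlations between genes of the same libraries, which share depth and scaling, and they carry no test.

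CTSZ was the member with the strongest relation to lactation period, and the only one with p under 0.05 in the simple regression, although not after adjustment. It was at 1904, 1368 and 2234 CPM in HY cow 2814, LY cow 3407 and LY cow 2893, the 3 earliest in lactation, and at 524 and 490 CPM in HY 3014 and LY 2864, the 2 latest. LY cow 7643 at 224 days (1667 CPM) and HY cow 3057 at 265 days (1488 CPM) were late cows with high levels. The log2 level of CTSZ fell by 0.55 ± 0.16 (SE) per 100 days, with r = -0.61 and rho = -0.62 (permutation p = 0.0040 and 0.0032, n = 21), and r was -0.55 (permutation p = 0.016) with the 2 most extreme days, those of cows 2814 and 3407, left out. The adjusted p over all genes was 0.13 in the linear regression, so the call does not survive that correction. No gene passed it in that regression, where the lowest adjusted p of any gene was 0.12. Here 1 of 8 members had p under 0.05, where 20.3% of all genes did and 9.88% with a negative slope. With 1 gene called, the share of members lies below the 20.3% and near the 9.88%.

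The other 7 members had r between -0.22 (CTSC) and 0.07 (CTSS) with lactation period. CTSZ gave r = -0.50 within HY, -0.68 within LY and -0.66 in the 16 libraries of lower mapping rate. The slope per 100 days in edgeR was -0.31 ± 0.27 (SE) in HY and -0.64 ± 0.24 in LY, and their difference had p = 0.377 (adjusted p = 1). In that test of slopes 0 of 8 members had p under 0.05, where 2.61% of all genes did, and no gene passed an adjusted p of 0.05 in edgeR. Casein share and lactation period were almost unrelated over the cows (r = -0.09). With log2 casein share as an added covariate, chosen after the data had been seen, the partial r of CTSZ with lactation period was -0.79 (adjusted p = 0.11 over all genes in the linear regression). CTSB then also had p under 0.05 (partial r = -0.47, p = 0.038). With the macrophage sum instead, the partial r was -0.69 for CTSZ (adjusted p = 0.063) and -0.53 for CTSB (adjusted p = 0.12).

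The gene most similar to CTSZ over the cows was CSTB, which encodes cystatin B, an inhibitor of cysteine cathepsins in the cytosol. Their r was 0.94 and rho 0.93. CSTB had r = -0.62 with lactation period (rho = -0.61, permutation p = 0.0036 and 0.0038), r = -0.61 with cows 2814 and 3407 left out, and an adjusted p of 0.12 in the linear regression. It ran from 531 to 2832 CPM. The next most similar genes were FTH1, the ferritin heavy chain that stores iron (r = 0.92), and DTNBP1, a subunit of a complex that sorts cargo to lysosome-related organelles (r = 0.90).

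**Figure D4:**
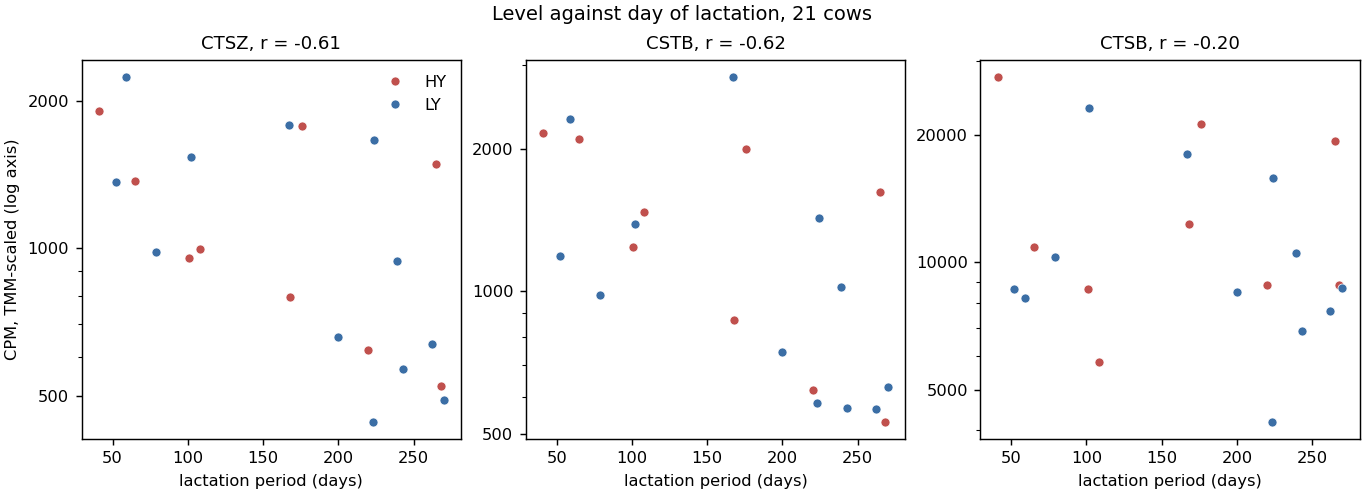
The 3 panels plot the level in CPM (TMM-scaled, log axis) of CTSZ, CSTB and CTSB against the lactation period in days, with 1 point per cow, HY in red and LY in blue. CTSZ and CSTB have r = -0.61 and -0.62, with a few late cows staying high, and CTSB has r = -0.20.

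The members did not move as 1 block. Of their 28 pairs, 27 had a positive r and 15 had r above 0.6, with a median of 0.62. The closest pairs were CTSD with CTSH (0.85), CTSB with CTSA (0.85) and CTSB with CTSH (0.82). CTSS stood apart from CTSD (0.03), CTSH (0.11) and CTSZ (-0.06), and was closest to CTSC (0.71) and CTSK (0.64). CTSK likewise had low values with CTSD (0.15) and CTSZ (0.17) and higher ones with CTSA (0.71) and CTSC (0.68). CTSS and CTSK are near neighbours in the current cattle annotation, with 1 uncharacterised gene between them. All pairs come from the same 21 libraries and so share their depth and scaling.

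**Figure D5:**
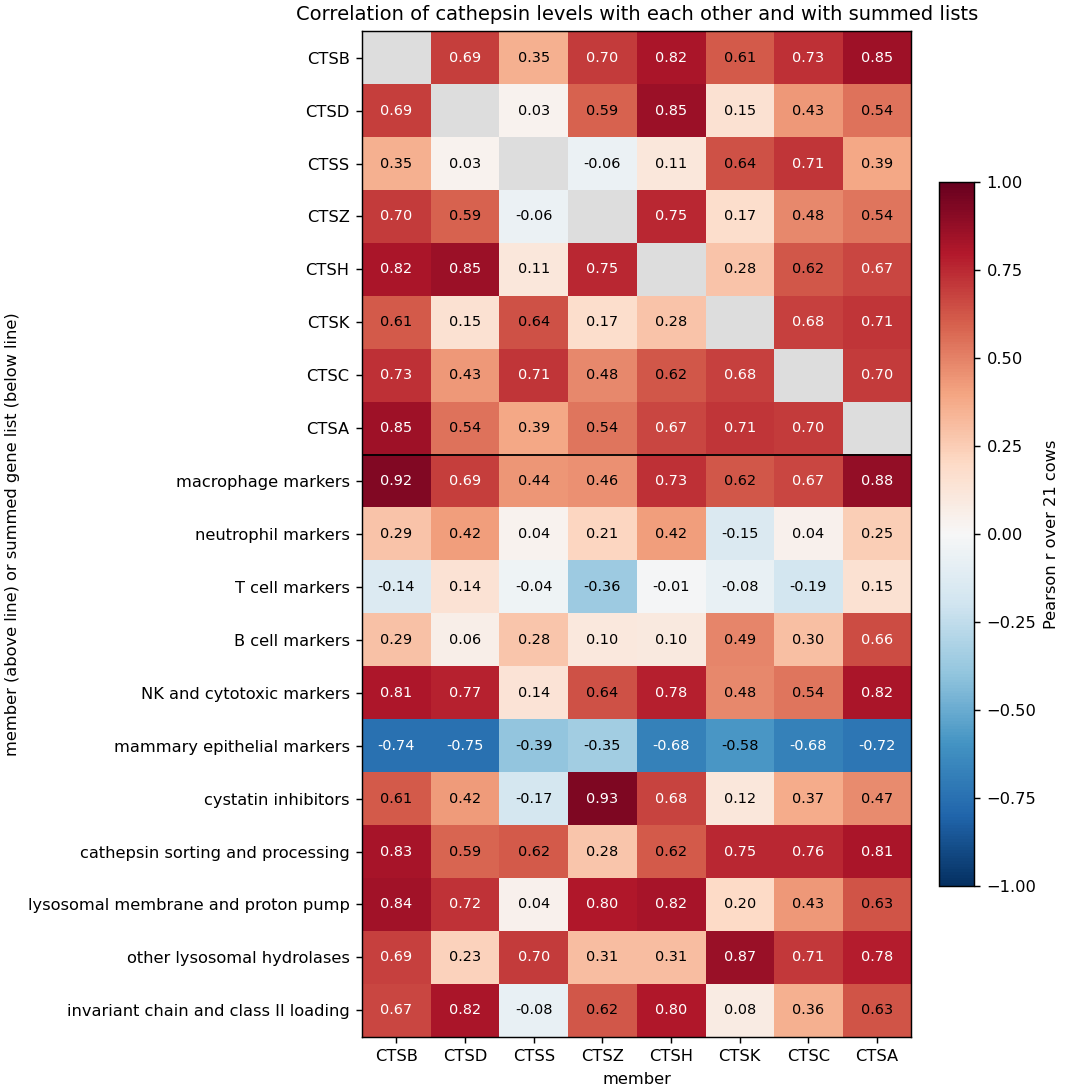
Each cell gives Pearson's r over 21 cows between the log2 level of the cathepsin in the column and that of the cathepsin (above the line) or of the summed gene list (below the line) in the row, with red positive and blue negative. CTSB has its highest value in the macrophage row (0.92), CTSZ in the cystatin row (0.93) and CTSK in the row of other lysosomal hydrolases (0.87).

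By the same measure the genes most similar to the other members, each among 7145 genes, included several lysosomal proteins. CTSB was nearest to PGD of the pentose phosphate pathway (r = 0.94) and to the dipeptidase CNDP2 (0.94). CTSC was nearest to LGMN, the asparagine-specific lysosomal protease legumain (0.86), to the serine carboxypeptidase SCPEP1 (0.86) and to RGL1 (0.85). CTSK was nearest to ATP6V1B2, a subunit of the proton pump that acidifies lysosomes (0.87), to SLC22A23 (0.85) and to ZNF629 (0.85).

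CTSD was nearest to HGS, which sorts ubiquitinated cargo at the endosome (0.94), to the actin-binding TWF2 (0.91) and to CYBA, a subunit of the phagocyte oxidase (0.90). CTSH also had CYBA among its nearest genes (0.90), with TSPAN32 (0.90) and PLBD2 (0.90). CTSS was nearest to the copper transporter SLC31A1 (0.87), to MOSPD2 (0.87) and to the iron reductase CYBRD1 (0.86). CTSA was nearest to complement gene C2 (0.95), to the ion channel P2RX4 (0.93) and to PLTP (0.92). PLTP lies beside CTSA in the annotation with overlapping ends, and the strand setting of the counting was not given, so reads of these 2 genes may not be fully separated. With other size factors the 3 nearest genes of a member shared 2 or 3 genes with those named here, and in the 16 libraries of lower mapping rate 1 to 3.

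Known partners of the members were looked up by role after the comparisons had been run. CTSA had r = 0.89 with GLB1 and 0.72 with NEU1, the galactosidase and the neuraminidase of its lysosomal complex. CTSD had r = 0.62 with PSAP, the precursor of the saposins. CTSS, in contrast, had r = -0.17 with CD74, the invariant chain, -0.14 with IFI30, the lysosomal thiol reductase of antigen processing, and 0.21 with BOLA-DRB3, a class II chain. CTSC had r = 0.27 with GZMA and -0.24 with GZMK, both low (medians of 2.51 and 13.7 CPM). CTSK had r = 0.71 with ITGB3 and 0.15 with ACP5, the tartrate-resistant acid phosphatase of osteoclasts.

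Of the other cathepsins, 4 of 9 listed were in the table, and they were related to casein share in both directions. CTSF, a cysteine cathepsin, had r = -0.63 (adjusted p = 0.019) and ran from 45.0 to 280 CPM. CTSL1 and CTSL2 are older symbols, and which cattle genes of the cathepsin L group they cover in the annotation used for counting is uncertain. They had r = 0.88 and 0.67 (adjusted p = 1.3e-05 and 0.011). CTSL1 was low throughout, from 0 counts in 2 cows to 159 counts, and reads of such related genes could have been split between them. CTSL2 ran from 4.11 to 68.7 CPM. CTSW, a cathepsin of cytotoxic lymphocytes, had r = 0.07. None of the 4 had p under 0.05 for HY against LY in edgeR or for lactation period in the linear regression. In the linear regressions on milk traits, CTSL2 had p under 0.05 for milk fat only (r = -0.48, rho = -0.48, permutation p = 0.027 and 0.031, adjusted p = 0.9997), and the other 3 for none.

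Genes that sort and process cathepsins were mostly lower where the casein share was higher. The gene lists were chosen with earlier results of these data known, so the shares below describe them and are not independent support. Of 8 measured, 6 were negatively related at an adjusted p under 0.05 and 0 positively, where 9.32% of all genes were negative at that level, and their median r was -0.68 beside -0.06 over all genes. Among them were IGF2R and M6PR, the mannose 6-phosphate receptors (r = -0.77 and -0.73), PSAP (-0.74) and NAGPA, which uncovers the mannose 6-phosphate tag (-0.69). Of 29 other lysosomal hydrolases, 14 had p under 0.05 and 11 an adjusted p under 0.05, all negative, beside 17.2% and 9.32% of all genes, among them GALNS (r = -0.79), GAA (-0.75) and MAN2B1 (-0.75), and the median r was -0.38. Of 26 genes of the lysosomal membrane and its proton pump, 12 were negative and 1 positive at p under 0.05, again beside 17.2% negative over all genes. CLCN7, a chloride transporter, had r = -0.78, MCOLN1, a calcium channel, -0.77, and ATP6V1D, a pump subunit, 0.65.

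None of 5 cystatins had p under 0.05 with casein share. Their median r was 0.23, but 2 of them, CSTA and CST11, had a median count under 10. The most abundant, CSTB, had r = -0.40, and the summed cystatins had r = -0.39. Of 7 genes for the invariant chain and class II loading, 3 were negative at an adjusted p under 0.05, where 9.32% of all genes were. These were BLA-DQB (r = -0.65), BOLA-DRB3 (-0.60) and CD74 (-0.58). Of 5 osteoclast-type genes measured, NFATC1 was negative at that level (-0.67), and of 3 granule serine proteases none had p under 0.05. Of 4 regulators of lysosomal genes, TFEB was negative at an adjusted p under 0.05 (r = -0.64). With lactation period no list had a member with an adjusted p under 0.05 in the linear regression, and neither did any other gene. At an unadjusted p under 0.05, CSTB was the only one of 5 cystatins, 0 of 29 hydrolases and 0 of 8 sorting genes were called, and 4 of 26 membrane and pump genes had a negative slope, led by CTNS (r = -0.61) and CD63 (-0.57), and 1 a positive slope, ATP6V1C1 (0.54). Over all genes 20.3% were called at that level and 9.88% with a negative slope, so the membrane and pump genes were near that background.

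Between HY and LY a few list genes had p under 0.05 in edgeR, and those named here each had an adjusted p of 0.9986. They included 1 of 29 hydrolases and 2 of 26 membrane and pump genes, shares near the 4.70% of all genes at that unadjusted level. Of the small lists, 2 of 5 osteoclast-type genes were called, of which ACP5 is also a listed hydrolase. Called too were 1 of 5 cystatins, 1 of 5 B cell markers and 1 of 5 NK and cytotoxic markers. Lists of 5 genes are too small for their shares to be set against 4.70%. The log2 fold change of HY over LY was -0.84 ± 0.33 (SE) for ACP5, -0.90 ± 0.35 for ATP6V0D2, a pump subunit, and 0.60 ± 0.22 for CTNS, the lysosomal cystine exporter.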

How the data were processed

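Counts per gene were deposited as 1 file per cow. According to the submitters' processing notes and the study's methods, the authors trimmed reads with Trimmomatic, mapped them to the bosTau7 assembly with TopHat2 and Bowtie2, converted them with SAMtools and made the counts with HTSeq; the gene models were a GTF file of the same assembly, and versions and strand setting were not given in the sources used here. The 5 HTSeq summary rows and 1 row without a gene name (0.105% of counts) were left out. Groups came from the labels.

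HY and LY were compared with edgeR 4.0.16 (TMM, quasi-likelihood test, all 12333 genes with a count), with DESeq2 1.42.0 as an alternative. Traits were regressed on log2(CPM + 0.25) with NumPy 2.4.6 and SciPy 1.17.1, and p-values were adjusted by the Benjamini-Hochberg method over all 12333 genes. Correlations had 100000 permutations. The study likewise regressed traits on TMM-normalized log2 expression, and it used lactation period only as a covariate. Its supplement also describes a pre-screen of genes by a low Spearman correlation, without stating with what. That pre-screen was not done here. The scripts were tested on simulated data. No 2 libraries agreed within sampling noise (lowest chi-square per degree of freedom 38.0). P-values measure the spread between cows. Mapping rates from the study were used only to split the libraries.

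The members and gene lists were chosen with earlier results of these data known. Named were the members, the 3 genes most correlated with each among genes counted at least 10 times in each cow, the genes of each list with the lowest p in a comparison (up to 2 each way) or called at adjusted p under 0.05 (up to 4), and the genes ranking first in a cow. Partners by role and the markers past the threshold or short of it were named after their values had been seen. A gene that the rule would name is not reported here. Lists held 179 symbols, of which 150 were in the table. Gene order came from the RefSeq annotation of ARS-UCD2.0, a different assembly, so no coordinates are given.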

Additional observations from a re-analysis of the deposited data

How the results depend on the processing

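The number of members with p under 0.05 was 0 for HY against LY, the 4 milk traits and the difference of slopes in every setting tried, namely other size factors, a pseudocount of 1 (regressions), a minimum of 10 counts in every cow, casein genes left out of the totals, added covariates, the 16 libraries of lower mapping rate and each cow left out in turn, where these were run. It stayed at 1 for lactation period except with a covariate added after seeing the data, casein share or the macrophage sum, where it was 2. It was 7 for casein share, 6 with other size factors (CTSK, p = 0.050), 6 to 7 with 1 cow left out, and 2 with the macrophage sum, where 0 of the 5 adjusted calls remained and 1230 genes in all had p under 0.05. The adjusted calls ranged from 4 to 6 with 1 cow left out. With the macrophage sum the sign turned for CTSS (0.29), CTSK (0.044) and CTSA (3.9e-04).

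The minimum of 10 counts, which leaves 7146 of 12333 genes to be tested, gave 93 genes at p under 0.05 for HY against LY, 124 for yield, 62 for fat, 81 for protein, 69 for solid and 76 for the slopes. DESeq2 gave 367 for HY against LY and edgeR 386 for solid. With 1 cow left out they ranged over 508 to 677 for HY against LY, 265 to 484 for yield (highest without HY cow 3280), 223 to 466 for fat (highest without HY cow 2920), 214 to 383 for protein, 169 to 292 for solid, 1667 to 3018 for lactation period (lowest without HY cow 3262) and 3239 to 4012 for casein share.

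Among the log2 fold changes of HY over LY, 1 cow left out turned the sign of CTSD (-0.066 to 0.50), CTSS (-0.12 to 0.055), CTSZ (-0.057 to 0.19), CTSK (-0.19 to 0.045) and CTSA (-0.19 to 0.35), none of which had p under 0.05. The r of CTSZ with lactation period ranged from -0.70 to -0.56. Of 594 results of single genes under alternatives, 567 kept their direction and side of p 0.05.

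No paired analysis was possible because the groups were separate cows whose replicate numbers are only names. Leaving out 1 cow in turn was not run for the difference of slopes. With 9 and 12 cows, differences of the size of the SEs given could not be detected.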
